A study of Mus musculus with 2 samples.

Results

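The tricarboxylic acid cycle oxidises acetyl-CoA in the mitochondrial matrix, and 9 genes of its enzymes were described here in the newborn mouse heart. They were listed by symbol from the 55536 mouse genes of the tables: Cs, Idh3a, Idh3b, Idh2, Ogdh, Sucla2, Suclg1, Fh1 and Mdh2. The list was made with earlier results of these data known. Total RNA was sequenced from hearts of male B6CASTF1/J mice, F1 animals of C57BL/6J and CAST/EiJ, at an age of 4 days, with no treatment given in the labels. There were 2 libraries (replicate 1 and replicate 2), each made from 300 ng of RNA depleted of ribosomal RNA, with ERCC spike-ins. The labels give different animal numbers but the same donor record, so the SD between the libraries may be technical. Both libraries form 1 group, conditions are not compared, and no test was run.

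In the cycle, the acetyl group is joined to oxaloacetate and the resulting citrate is oxidised stepwise back to oxaloacetate, which yields NADH, FADH2 and a nucleoside triphosphate. The NADH and FADH2 feed the respiratory chain, the main source of ATP in heart muscle. After birth the heart shifts towards fatty acid oxidation, whose acetyl-CoA enters at the same step.

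Levels are in TPM, which divides reads by transcript length and scales them to the library, and they are given as mean ± SD over 2 libraries (n = 2). Each library was quantified in 2 ways by the authors, here called the first tables and the second tables, and values are from the first tables unless stated. Expected counts on mouse genes were 31512596 in replicate 1 and 35744013 in replicate 2. In these bulk samples, fewer cells of a type and less RNA per cell cannot be told apart. Coordinates are those of mm10 (GRCm38) with GENCODE M21.

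All 8 cardiomyocyte markers were expressed (TPM of 1 or more in each heart), with a summed TPM of 34722 in replicate 1 and 32716 in replicate 2. Expression reached that level for 0 of the 7 markers of skeletal muscle, with Myod1 listed at 0. All 6 fibroblast, 6 endothelial and 6 macrophage markers were expressed. Fibroblast markers summed to 953 TPM in replicate 1 and 1327 in replicate 2, and red cell markers to 1406 and 5290 TPM in the same order. Of the 6 red cell markers, 5 were over 2-fold lower in replicate 1. Of 7 brown fat markers 3 were expressed. In replicate 1 and replicate 2, Cidea had 26.58 and 27.05 TPM, Dio2 1.02 and 1.65 TPM and Cox8b 551 and 485 TPM. Ucp1, the uncoupling protein that defines brown fat, was listed at 0 in replicate 1 and had 8.94 TPM in replicate 2. Adipoq had 0.09 and 2.06 TPM, Plin1 0 and 2.12 TPM and Elovl3 0 and 0.02 TPM in the same order. The part of these cell types in the levels below was not tested.

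All 9 enzyme genes were expressed in both hearts, against 53.8% of the 22015 nuclear protein-coding genes and 23.8% of all mouse genes. All 9 also passed a TPM of 10, against 29.1%. Their mean levels lay between 176 and 725 TPM, a 4.12-fold span, and their ranks among nuclear protein-coding genes lay between 51 and 394. Together they summed to 3230 TPM in replicate 1 and 2990 TPM in replicate 2, which is 0.715% and 0.692% of the TPM of all nuclear protein-coding genes in the same order.

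Citrate synthase opens the cycle by joining acetyl-CoA to oxaloacetate. Its gene Cs (ENSMUSG00000005683.8, chr10:128337734-128362479, plus strand) had 396 TPM in replicate 1 and 346 TPM in replicate 2, a mean of 371 ± 35.5. Replicate 1 was the higher heart. Of 2877 windows of 50 nt along its leading transcript, 115 (4.00%) were also found in Csl, a related gene at a mean of 1.26 TPM, and 0 windows of 100 nt were.

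Oxidation of isocitrate is carried out by an NAD-dependent enzyme, built of subunits from Idh3a, Idh3b and Idh3g, and by a separate NADP-dependent enzyme encoded by Idh2. Idh3a, the catalytic subunit (ENSMUSG00000032279.11, chr9:54586334-54604661, plus strand), had 236 TPM in replicate 1 and 211 TPM in replicate 2 (223 ± 17.8). Idh3b, a further subunit of that enzyme (ENSMUSG00000027406.12, chr2:130279309-130284547, minus strand), had 227 TPM in replicate 1 and 200 TPM in replicate 2 (213 ± 19.1). The ranges of these subunit genes overlapped. Idh2, which makes mitochondrial NADPH (ENSMUSG00000030541.16, chr7:80094846-80115392, minus strand), had 719 TPM in replicate 1 and 731 TPM in replicate 2 (725 ± 8.81). It was the highest of the 9, and the only one whose TPM was lower in replicate 1.

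The next steps turn 2-oxoglutarate into succinate through succinyl-CoA. Ogdh, the first subunit of the 2-oxoglutarate dehydrogenase complex (ENSMUSG00000020456.17, chr11:6291633-6356642, plus strand), had 426 TPM in replicate 1 and 372 TPM in replicate 2 (399 ± 38.5). Its range overlapped that of Cs. Succinyl-CoA ligase pairs the alpha subunit from Suclg1 with a beta subunit that uses ADP, from Sucla2, or GDP, from Suclg2. Suclg1 (ENSMUSG00000052738.14, chr6:73248382-73276911, plus strand) had 191 TPM in replicate 1 and 180 TPM in replicate 2 (186 ± 7.72). Sucla2 (ENSMUSG00000022110.13, chr14:73525319-73596142, plus strand) had 187 TPM in replicate 1 and 164 TPM in replicate 2 (176 ± 16.3). In the first tables Suclg1 and Sucla2 held the low end of the order together with Fh1.

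Fumarase and malate dehydrogenase close the cycle by hydrating fumarate and oxidising malate to oxaloacetate. Fh1 (ENSMUSG00000026526.14, chr1:175600374-175625635, minus strand) had 191 TPM in replicate 1 and 180 TPM in replicate 2 (186 ± 8.28). Mdh2, the mitochondrial malate dehydrogenase (ENSMUSG00000019179.10, chr5:135778480-135790398, plus strand), had 657 TPM in replicate 1 and 606 TPM in replicate 2 (632 ± 35.8). Mdh2 was the second highest of the 9.

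The order of the levels was Idh2, Mdh2, Ogdh, Cs, Idh3a, Idh3b, Suclg1, Fh1 and Sucla2. The ranges over the hearts were apart between Idh2 and Mdh2 (1.15-fold), Mdh2 and Ogdh (1.58-fold), Cs and Idh3a (1.66-fold) and Idh3b and Suclg1 (1.15-fold). They overlapped for the other 4 neighbours in the order, and Suclg1 and Fh1 changed places between the hearts. By the mean of the second tables Fh1 stood at place 5, above Idh3a, Idh3b, Suclg1 and Sucla2. The other genes kept their order.

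**Figure D1:**
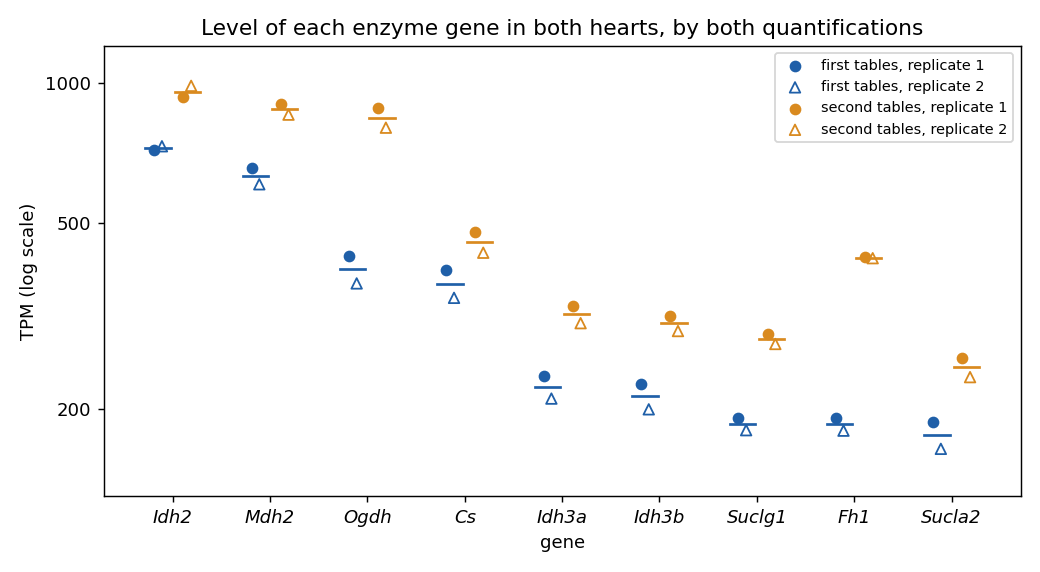
Level of each of the 9 genes in TPM (log axis), ordered by the mean of the first tables; filled circles are replicate 1, open triangles replicate 2, and bars the mean of both. First tables are blue and second tables orange; Idh2 and Mdh2 lead in both, and the step between the tables is widest for Fh1 (186 against 422 TPM) and Ogdh (399 against 842 TPM).

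The level of some of these genes depended on the quantification. Of the 9 genes, 3 were over 1.5-fold lower in the first tables than in the second in both hearts. The background was 15573 genes with a mean of 1 TPM or more in either quantification. Of these, 25.2% were lower by that fold, and 29.4% passed it in either direction. The 3 genes were Fh1, with 186 TPM in the first tables and 422 TPM in the second, Ogdh, with 399 and 842 TPM in that order, and Suclg1, with 186 and 283 TPM. The log2 ratio of first over second tables was -1.14 and -1.23 for Fh1 and -1.05 and -1.11 for Ogdh in replicate 1 and replicate 2. With the ratios centred on the median of the 15573 genes, 2 of the 9 passed that fold, against 13.6% of the 15573 in either direction. Counts moved far less, since the second tables held 0.985 to 1.09 times the counts of the first for each of the 9. The models to which the counts were given differ in length, and a count on a short model gives more TPM. TPM used the length less 99 nt in the first tables. The second tables used the length less 342 nt in replicate 1 and less 352 nt in replicate 2. Fh1-205, of 542 nt, had 601 and 640 counts in the first tables and 588 and 605 in the second. Its TPM was 55.9 and 50.2 in the first tables and 130 and 120 in the second. The parts of read assignment and of length were not separated. When counts were divided by the length of the leading complete coding transcript alone, Cs stood above Ogdh and Idh3b above Idh3a. Fh1 was then the lowest of the 9. That alternative was added after seeing the data.

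Of the deposited TPM intervals, whose level is not stated, 11 of 18 lay wholly below the TPM they belong to, and the other 7 held it. They are therefore used here only to say which pairs overlap.

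Ogdh is known for alternative exons that affect how the enzyme responds to calcium, and the annotation has 4 full-length coding models that differ there. The exons are shown because they decide the coding sequence of Ogdh. Ogdh-201 and Ogdh-204 carry an exon of 103 nt, Ogdh-202 and Ogdh-203 carry an exon of 91 nt in its place, and Ogdh-203 adds one of 45 nt. They lie at chr11:6316978-6317080, chr11:6316765-6316855 and chr11:6324878-6324922 on the plus strand. No base is singled out by capitals.
Exon of 103 nt: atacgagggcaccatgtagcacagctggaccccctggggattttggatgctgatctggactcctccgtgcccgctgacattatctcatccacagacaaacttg
Exon of 91 nt: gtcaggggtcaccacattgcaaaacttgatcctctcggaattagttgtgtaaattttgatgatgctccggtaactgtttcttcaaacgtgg
Exon of 45 nt: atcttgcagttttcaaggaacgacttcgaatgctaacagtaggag

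The models encode 1023 codons (Ogdh-201 and Ogdh-204), 1019 codons (Ogdh-202) and 1034 codons (Ogdh-203). Of the TPM of these 4 models, those with the 103 nt exon held 97.96% in replicate 1 and 98.42% in replicate 2, a mean of 98.2% ± 0.325. By the second tables they held 97.98% in replicate 1 and 98.35% in replicate 2 (98.2% ± 0.266). Nearly all full-length Ogdh RNA was assigned to the 103 nt form by both quantifications. The models with the 91 nt exon had 7.72 TPM in replicate 1 and 5.09 TPM in replicate 2.

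Most of the difference in Ogdh between the tables lay in Ogdh-206 and Ogdh-207, annotated models that end within the 5′ part of the gene and lack a complete coding sequence. They held 9.18% of Ogdh TPM in replicate 1 and 10.6% in replicate 2 in the first tables, and 47.2% and 48.5% in the second in the same order. In counts the same models held 1.49% and 1.76% in the first tables and 7.11% and 7.63% in the second. Ogdh-201 led in both, with 71.8% ± 1.51 of TPM in the first tables and 48.7% ± 3.19 in the second.

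**Figure D2:**
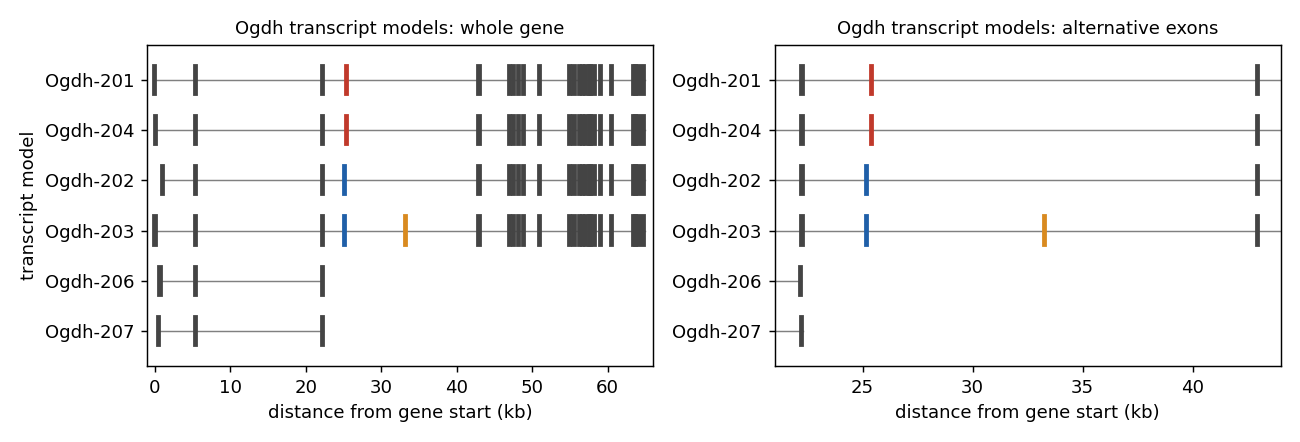
Exons of 6 Ogdh transcript models by distance from the gene start in kb, for the whole gene (left) and for the alternative exons (right); exons narrower than the line are widened to be seen. Red marks the 103 nt exon of Ogdh-201 and Ogdh-204, blue the 91 nt exon of Ogdh-202 and Ogdh-203 and orange the 45 nt exon of Ogdh-203; Ogdh-206 and Ogdh-207 end before these exons.

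Across the 9 genes, the annotation has 50 transcript models, of which 15 have a complete coding sequence, 7 an incomplete one, 7 are marked for nonsense-mediated decay, 18 retain an intron and 3 are processed transcripts without a coding sequence. Nonsense-mediated decay removes RNAs that carry a stop codon too early. The leading transcript was the same in both hearts for 9 of 9 genes, against 91.7% of 6320 nuclear protein-coding genes that averaged 10 TPM or more and have several transcripts. Over the 9, its median share of the TPM was 71.8% ± 1.51, against a median of 61.8% for those genes. It was also the same in the second tables for 6 of 9, against 67.1%.

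For Cs, Idh2 and Idh3b nearly all RNA was assigned to a single complete coding model. Cs-201 held 99.6% ± 0.0145, Idh2-201 96.2% ± 0.184 and Idh3b-201 95.9% ± 0.464. The second tables gave 99.6%, 96.6% and 95.7% in that order. The leading Sucla2 models, Sucla2-203 with 57.5% ± 2.31 and Sucla2-201 with 38.1% ± 2.67, share a coding sequence of 1389 nt. For Suclg1, Suclg1-201 held 75.8% ± 3.84, and Suclg1-206, an incomplete model that lacks 5 exons, held 21.5% ± 4.05.

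For Idh3a, Mdh2 and Fh1, models marked for nonsense-mediated decay took a share that differed between the tables. The sequences that set those models apart are given, since they carry the early stop or the skipped exon. Idh3a-204 adds an exon of 95 nt with an early stop codon, and the bases from the exon start through that stop, in capitals, are at chr9:54592161-54592184 (plus strand). Fh1-204 adds one of 97 nt, shown in the same way, at chr1:175622614-175622676 (minus strand). Mdh2-203 joins exon 1 to exon 3 and skips the exon of 169 nt at chr5:135783305-135783473 (plus strand), and the bases of the downstream exon are in capitals.
Idh3a-204: ggcatcgtttgcattactattTAA
Fh1-204: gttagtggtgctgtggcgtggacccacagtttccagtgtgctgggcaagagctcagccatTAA
Mdh2-201: agcacttcggcccagAACAATGCTAAAGTG
Mdh2-203: agcacttcggcccagGCTACCTTGGACCGG

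The 95 nt, 97 nt and 169 nt exons are not multiples of 3 nt. Idh3a-205, the complete coding model, held 46.7% of TPM in replicate 1 and 52.5% in replicate 2, and Idh3a-204 held 46.0% and 40.9% in the same order. In the second tables Idh3a-204 led in both hearts, with 58.8% ± 4.83 of TPM against 39.9% ± 4.87 for Idh3a-205. By counts in the second tables, Idh3a-204 led in replicate 1 (51.9% against 46.4%) and Idh3a-205 in replicate 2 (53.6% against 44.8%). The models also differ in length, at 1812 nt for Idh3a-204 and 2580 nt for Idh3a-205, so these shares do not measure the added exon alone.

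Mdh2-201 held 61.8% ± 0.667 and Mdh2-203 36.8% ± 0.545 of Mdh2 TPM. The second tables gave 83.0% ± 2.43 and 5.48% ± 2.86 to the same models. The small SD between hearts in the first tables thus did not cover the difference between quantifications. Fh1-201, the complete coding model, held 57.4% ± 0.270 of Fh1 TPM, with 28.6% ± 0.897 on Fh1-205, an incomplete model that lacks an exon of 204 nt, and on Fh1-204 8.87% in replicate 1 and 11.1% in replicate 2. In the second tables Fh1-204 led with 36.6% ± 2.43, against 27.8% ± 0.875 for Fh1-201. By counts Fh1-201 led in both tables, with 88.1% in the first and 79.1% in the second. By TPM, the leading model was one marked for nonsense-mediated decay in both hearts for 2 of 9 genes in the second tables, against 2.09% of the same 6320 genes, and for 0 of 9 in the first tables, against 1.76%. Those 2 genes, Idh3a and Fh1, were not led by such a model in both hearts by counts.

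**Figure D3:**
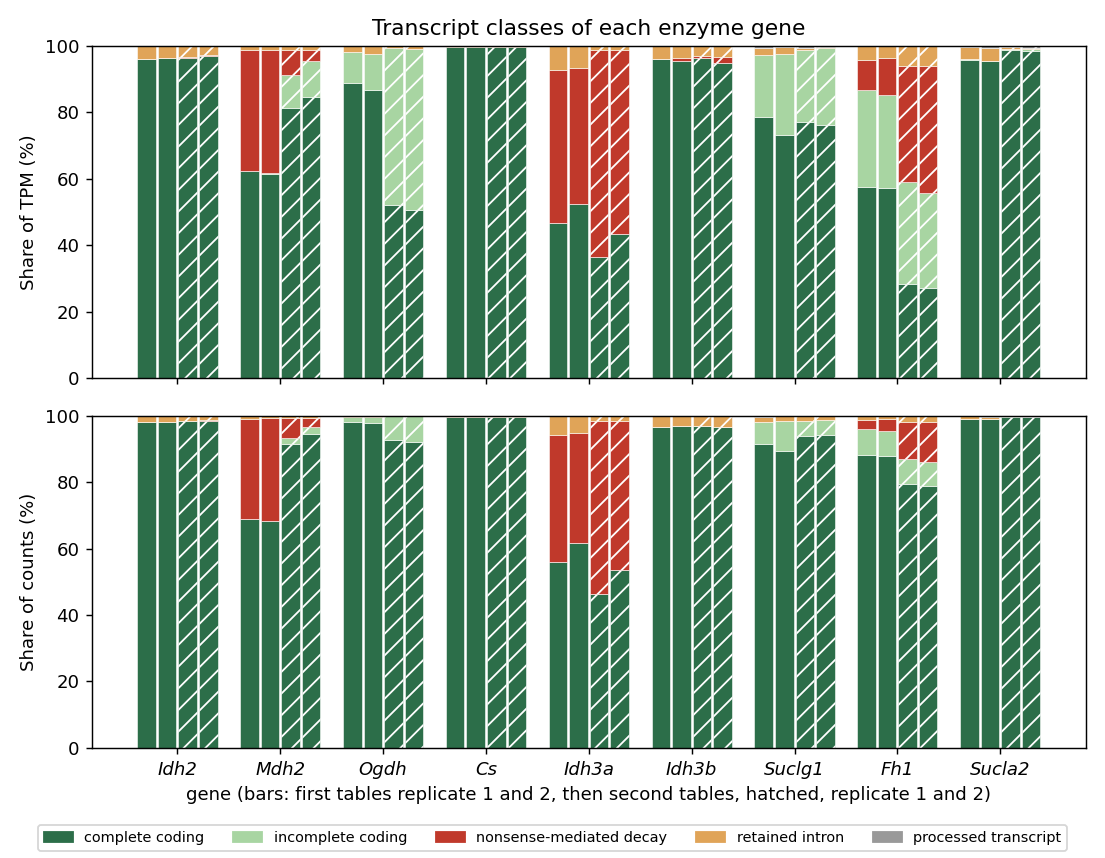
Share of each gene's TPM (top, in %) and counts (bottom, in %) held by classes of transcript model; each gene has 4 bars, first tables replicate 1 and replicate 2, then second tables (hatched) in the same order. Complete coding models hold nearly all of Cs, Idh2 and Idh3b, whereas nonsense-mediated decay models (red) hold 46.0% and 40.9% of Idh3a TPM in replicate 1 and replicate 2 in the first tables and 62.2% and 55.3% in the second.

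Genes were next set against their partners within each heart, as log2 ratios of TPM with a pseudocount of 0.1. Of 14 pairs, the first-named gene was higher in both hearts in 12 and its partner in 2. Between subunits of the NAD-dependent enzyme, Idh3a over Idh3b was 0.07 ± 0.01 and Idh3a over Idh3g was 0.21 ± 0.07. Between the subunits of succinyl-CoA ligase, Suclg1 over Sucla2 was 0.08 ± 0.07, and turned to Sucla2 higher when counts were not divided by length. For Idh3a and Idh3b and for Suclg1 and Sucla2, the deposited intervals overlapped in replicate 1 and were apart in replicate 2. Since many of the deposited intervals miss their own TPM, they cannot say whether the levels of a pair differ.

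Sucla2 exceeded Suclg2, the GDP-type beta subunit, by 2.05 ± 0.18, or 4.16-fold. Suclg2 had 41.3 TPM in replicate 1 and 43.0 TPM in replicate 2. Sucla2 thus held 82.0% of the TPM of both beta subunits in replicate 1 and 79.2% in replicate 2, and 82.4% and 79.6% by the second tables. The ADP-type subunit predominated in both hearts.

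Mitochondrial forms were set against cytosolic or related ones. Of 8 such genes, 6 were expressed in both hearts. Idh2 exceeded Idh1, the cytosolic NADP-dependent enzyme, by 5.20 ± 0.27, or 36.9-fold. Ogdh exceeded the related Ogdhl, at a mean of 4.64 TPM, by 6.39 ± 0.19, or 84.1-fold, and by 7.09, or 136-fold, in the second tables. Cs exceeded Acly, which cleaves citrate in the cytosol, by 3.76 ± 0.09. Malate dehydrogenase did not follow that pattern, as Mdh2 over the cytosolic Mdh1 was -0.36 ± 0.01 in the first tables and 0.20 in the second, so the order of that pair depends on the quantification.

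Among neighbouring steps, Ogdh exceeded Dlst and Dld, the other subunits of its complex, by 0.72 and 1.46 ± 0.03. Idh2 exceeded Idh3a by 1.70 ± 0.13. Fh1 over Sdha, the flavoprotein of succinate dehydrogenase, was -1.23 ± 0.01 in the first tables and -0.19 in the second.

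**Figure D4:**
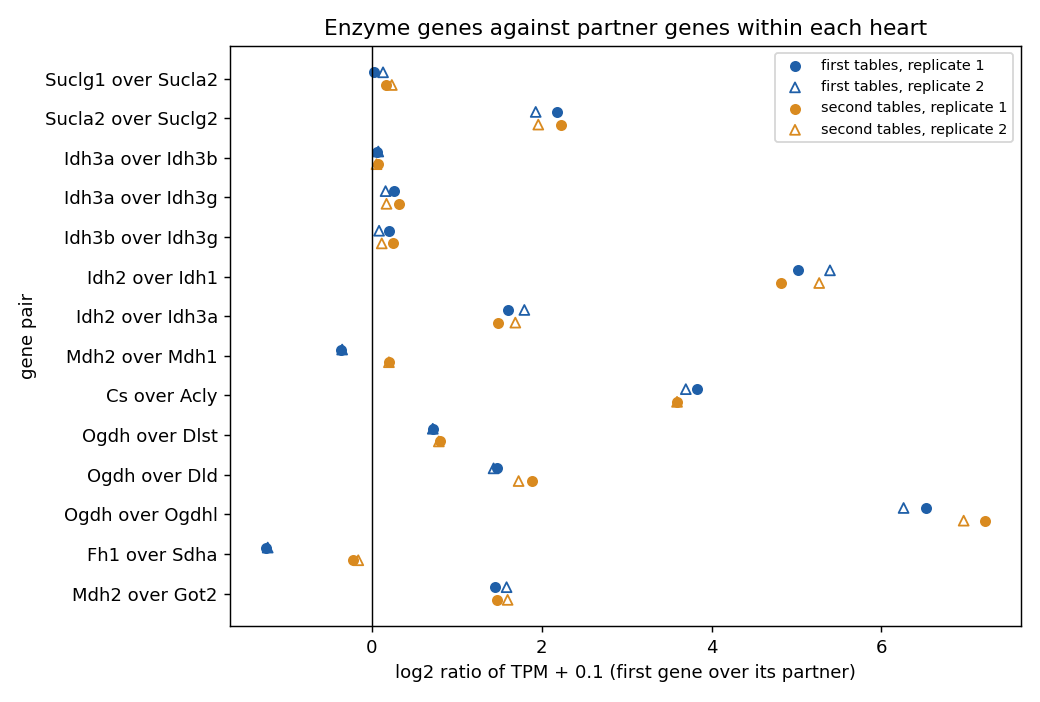
Log2 ratio of TPM + 0.1 of a first-named gene over its partner in each of 14 pairs; filled circles are replicate 1 and open triangles replicate 2, with first tables blue and second tables orange. Idh2 over Idh1 and Ogdh over Ogdhl stand farthest to the right, and Mdh2 over Mdh1 lies at -0.36 in the first tables and 0.20 in the second.

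The other 9 genes of the cycle, among them the succinate dehydrogenase subunits Sdha to Sdhd, were also all expressed. Sdha stood at 436 ± 22.8 TPM, and Suclg2 was the lowest with 42.2 ± 1.25 TPM. Of the 22 genes that fill or drain the cycle or shuttle its products, 20 were expressed, led by the aspartate aminotransferase Got2 at 221 ± 27.0 TPM. Pcx, pyruvate carboxylase, which makes oxaloacetate from pyruvate, stood at a mean of 3.13 TPM. All 4 assembly factors of succinate dehydrogenase were expressed.

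The hearts were compared last, to give the error behind these levels. The log2 ratio of replicate 1 over replicate 2, from TMM-scaled counts, lay between -0.16 and 0.10 over the 9 genes, with a median of 0.02. Of the 9, 0 differed over 2-fold, against 3.06% of 16271 filtered genes, and 0 over 1.5-fold, against 12.3%. Their median absolute log2 ratio was 0.05, against 0.19 over all filtered genes and 0.17 over nuclear protein-coding ones, most of which are expressed at lower levels. The coefficient of variation of TPM had a median of 7.98% over the 9, against 5.04% over the 695 nuclear protein-coding genes at 100 TPM or more. Of the 9, 6 were higher in replicate 1, against 50.4% of filtered genes and 47.3% of nuclear protein-coding ones. The number higher in replicate 1 was 4 with spike-in scaling, 8 with scaling to total counts and 3 by the second tables. Those shares are for TMM scaling, and none is given for the other scales or for TPM as deposited. The median log2 ratio of all filtered genes was -0.04 with spike-in scaling and 0.07 with total counts. No direction common to the 9 can therefore be given. In TPM as deposited, 8 of 9 were higher in replicate 1, and the median log2 ratio of all filtered genes was shifted by 0.13 on that scale.

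Idh2 had 28133 expected counts in replicate 1 and 34019 in replicate 2, a log2 ratio of -0.16 (95% counting interval -0.18 to -0.14). Ogdh had 37759 and 38291 expected counts in the same order, a log2 ratio of 0.10 (0.08 to 0.12). The interval also lay above 0 for Cs, Idh3b and Sucla2 and held 0 for the other 4. With spike-in scaling the log2 ratio was 0.02 for Cs and Idh3b, 0.001 for Sucla2, 0.05 for Ogdh and -0.20 for Idh2. No share of all genes is given for this interval, so these calls have no background. These exact binomial intervals cover counting error only, and the spread between the libraries over all genes is wider. A common biological coefficient of variation of 15.2% gives such a log2 ratio an SD of 0.31. That coefficient is a single value for all filtered genes. Over nuclear protein-coding genes at 100 TPM or more, the median coefficient of variation of TPM was 5.04%. The SD of 0.31 therefore need not apply at the levels of the 9. Over the other 9 cycle genes the median was -0.01, with 4 higher in replicate 1 and 0 over 2-fold.

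**Figure D5:**
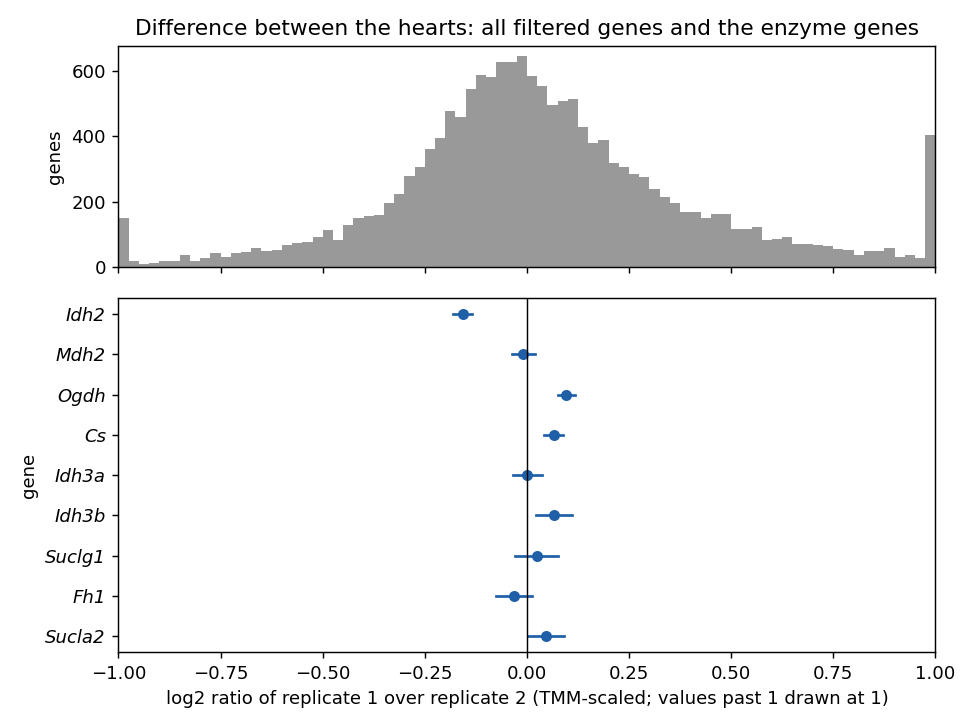
Log2 ratio of replicate 1 over replicate 2 after TMM scaling, as a histogram of 16271 filtered genes (top; values past 1 in either direction are drawn in the end bins) and as points with 95% counting intervals for the 9 genes (bottom). All 9 lie between -0.16 and 0.10, with Idh2 farthest from 0.

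By closeness of TPM in the 2 libraries, measured as Euclidean distance on the log2 scale, the nearest nuclear protein-coding genes included Uqcrc2 and Ndufv1 for Cs, Ndufa8 for Idh3a, Immt for Idh3b, Ndufv2 for Ogdh, Ghitm for Sucla2 and Csrp3 for Mdh2. Igf2 was nearest to Idh2, and Macf1 to both Suclg1 and Fh1. With 2 libraries this measures chiefly the level itself.

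Promoter windows of RefSeq (GRCm38.p6; 250 bases before to 50 after each start) were found for 8 of the 9 genes, 13 windows in all. Ogdh has 6 of them, some overlapping, and so more chances of a match, while the other 7 genes have 1 each. Motifs were searched on both strands. The estrogen-related receptor half-site AAGGTCA was found in 1 of the 13 windows, of Ogdh, against 4.72% of all 32851 windows. The NRF1 motif GCGCANGCG was found in 3 windows, of Ogdh and Sucla2 (6.25% of all windows), and CCGGAAG, bound by ETS factors such as GABPA, in 1 window, of Idh3b (8.86%). The YY1 motif ATGGCGG was found in 3 windows, of Ogdh and Sucla2 (4.05%), and the E-box CACGTG in 3 windows, all of Ogdh (7.15%). CCAAT was found in 10 of the 13 windows (37.4% of all windows), GGGCGG in 9 (35.7%) and TATAAA in 0 (13.6%). By gene, CCAAT was found in 5 of the 8 genes and GGGCGG in 6 of the 8. Overlapping windows of Ogdh count the same site more than once, and the shares of all windows do not apply to gene counts. The half-site, NRF1, YY1 and E-box matches of Ogdh lay in its windows starting at chr11:6291920, 6292308 and 6292329. Its windows starting at 6291347, 6291356 and 6291409 span the start of Ogdh-201, the leading model. Of the motifs searched, those windows held only CCAAT and GGGCGG. The median GC content was 59.7% over the 13 windows and 52.7% over all. The Ogdh window with the half-site, at chr11:6291920-6292219 (plus strand), is shown because it is the only one of the 13 with that motif, which reads TGACCTT on this strand and is in capitals.
Ogdh window: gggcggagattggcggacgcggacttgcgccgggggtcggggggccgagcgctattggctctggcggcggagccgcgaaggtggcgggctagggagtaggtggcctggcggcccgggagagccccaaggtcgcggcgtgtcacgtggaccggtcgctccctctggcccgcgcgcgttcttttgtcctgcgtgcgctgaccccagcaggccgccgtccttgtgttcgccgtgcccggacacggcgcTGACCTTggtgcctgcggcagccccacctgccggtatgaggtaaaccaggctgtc

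Nop56, which overlaps Idh3b on the opposite strand, had 1074 expected counts in replicate 1 and 1033 in replicate 2. The libraries are strand-specific per the labels, but whether counting used strand is not stated, so reads in the overlap are uncertain.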

How the data were processed

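Total RNA of 2 hearts was analysed from the files the authors deposited. Per the file headers, the first gene and transcript tables hold expected counts, TPM, the percent of a gene's TPM held by each isoform and the bounds of a TPM interval (a signal range), in columns named as RSEM writes them. The second transcript tables, deposited beside them, hold estimated counts with TPM under the column names kallisto uses. The build is mm10, the C57BL/6J genome, and the annotation GENCODE M21. Which aligner, versions or settings were used is not given in the sources used here. Effective length was the length less 99 nt in the first tables and less 342 and 352 nt in the second for replicate 1 and replicate 2.

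Levels were taken as TPM, and second-table transcripts were summed per gene. Expected counts were rounded to whole numbers, filtered with filterByExpr and scaled by TMM in edgeR 4.0.16 (R 4.3.3) with a prior count of 2, and by DESeq2 1.42.0 as an alternative. The step was tested on simulated data. Total expected counts were 31698880 and 35939759. Spike-ins held 0.588% and 0.545%, and 26248 rows naming no gene held 2 and 4 counts (6.31e-06% and 1.11e-05%) and stayed out of library sizes. Other steps used Python 3.11.15, pandas 2.3.3, NumPy 2.4.6 and SciPy 1.17.1. Sequences came from the annotated transcripts and genome of the same build and, for promoters, RefSeq. The 9 genes and all lists were chosen with earlier results of these data known. Named genes were the 9, the listed cycle, isoform, shuttle and marker genes, 14 pairs, transcripts with at least 10% of a gene, and the 2 genes nearest each of the 9 in level. Some values of listed or overlapping genes are not reported here.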

Additional observations from a re-analysis of the deposited data

How the results depend on the processing

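No paired analysis was possible because both libraries belong to 1 group. The summed level of the 9 genes was 3110 TPM, and 4708 by the second tables, 7036 with TPM rescaled over nuclear protein-coding genes and 2838 with the length of the leading complete coding transcript. Their share of nuclear protein-coding TPM was 0.704%, and 0.723% by the second tables and 0.666% of expected counts. The median share of the leading transcript was 71.8%, and 76.5% by the second tables, 99.8% among protein-coding transcripts and 88.1% of expected counts. The last of these and the transcript-length alternative were chosen after seeing the data. With either heart left out, the sum lay between 2990 and 3230 TPM, the share between 0.692% and 0.715% and the leading share between 70.8% and 72.9%, while the number of genes expressed, of pairs with the first-named gene higher and of genes over 1.5-fold different between the tables did not change. The median log2 ratio of replicate 1 over replicate 2 lay between -0.02 (spike-in scaling and the second tables) and 0.16 (TPM as deposited). It could not be computed without 1 of the hearts, nor could the leading transcript be compared between hearts. With 2 libraries the SD is imprecise, and it does not cover how reads were assigned to transcripts or which length was used. Each of the 9 genes had at least 5656 expected counts in each heart.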
